A study of Mus musculus with 2 samples.

Results

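Dividing progenitors and newborn neurons are rare in the adult mouse brain. They were sought here among single nuclei by 4 genes. Igfbpl1 and Sox11 are genes of immature neurons, of which Sox11 encodes a transcription factor. Top2a encodes the topoisomerase that untangles chromosomes before they separate, and Mki67 encodes the proliferation antigen Ki-67. A nucleus was taken as a member when at least 2 of these 4 genes were detected (1 UMI or more), when Pdgfra, the marker of oligodendrocyte precursors, was at 0, and when at most 1 of Mog, Csf1r, Flt1 and Slc17a7 (oligodendrocytes, microglia, endothelium and cortical glutamatergic neurons) was detected. UMIs (unique molecular identifiers) are tags by which each captured RNA is counted once. The rule found 136 members among 26705 kept nuclei: ShamRT-28d gave 90 of 11037, and WBRT-28d gave 46 of 15668. Members were thus chosen by the measured UMIs of these genes, whose values are given as a description only.

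The libraries were made from frozen whole brains of C57BL/6 mice, 2 pooled mice to a library and 1 library to a condition. WBRT-28d mice had whole-brain irradiation of 2 Gy on 5 occasions and were taken 28 days later, and ShamRT-28d mice were mock-irradiated (the labels call them untreated) and taken at the same time. With 1 pooled library a condition there is no replicate spread and no test between the conditions: intervals below are exact, at 95%, and cover counting error only, so that differences between mice, dissections and library preparations cannot be told apart from irradiation.

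New neurons arise in the adult rodent forebrain in the subventricular zone, whose dividing progenitors give rise to neuroblasts that migrate to the olfactory bulb and become GABAergic interneurons, and in the dentate gyrus of the hippocampus, where new granule neurons are glutamatergic. Stem cells with features of astrocytes give rise to transit-amplifying progenitors with Egfr. These divide and yield neuroblasts with Dcx, Sox11 and, in the olfactory lineage, Dlx genes and Meis2. Dividing neural precursors are known as a radiosensitive population.

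Kept nuclei had at least 500 detected genes and at most 5% of UMIs on mitochondrial genes. They held a median of 2378 UMIs in ShamRT-28d and 2594 in WBRT-28d, and members were deeper, with medians of 4667 (913 to 47604) and 5854 (1254 to 38292). The libraries shared 43 barcode sequences, 0 of them among members. Scrublet, which scores barcodes by their likeness to simulated doublets, marked 2 of the 90 members in ShamRT-28d and 12 of the 46 in WBRT-28d (26.1%), against 6.33% and 10.3% of the other kept nuclei. For several results, values without the marked nuclei are given beside those with them.

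Members made up a smaller share of WBRT-28d. They were 0.815% (0.656 to 1.0) of kept nuclei in ShamRT-28d and 0.294% (0.215 to 0.391) in WBRT-28d, a ratio of 0.360 (0.247 to 0.519). Exactly 2 markers were held by 73 and 41 nuclei, and 3 or 4 markers by 17 and 5, where the ratio was 0.207 (0.0598 to 0.585). All 4 markers were found in 7 and 2. Without the nuclei that Scrublet marked, 88 and 34 members were left and the ratio was 0.285. When every nucleus was thinned to 1500 UMIs before the rule was applied, which left out 2870 and 2294 shallower nuclei, the ratio was 0.241.

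**Figure D1:**
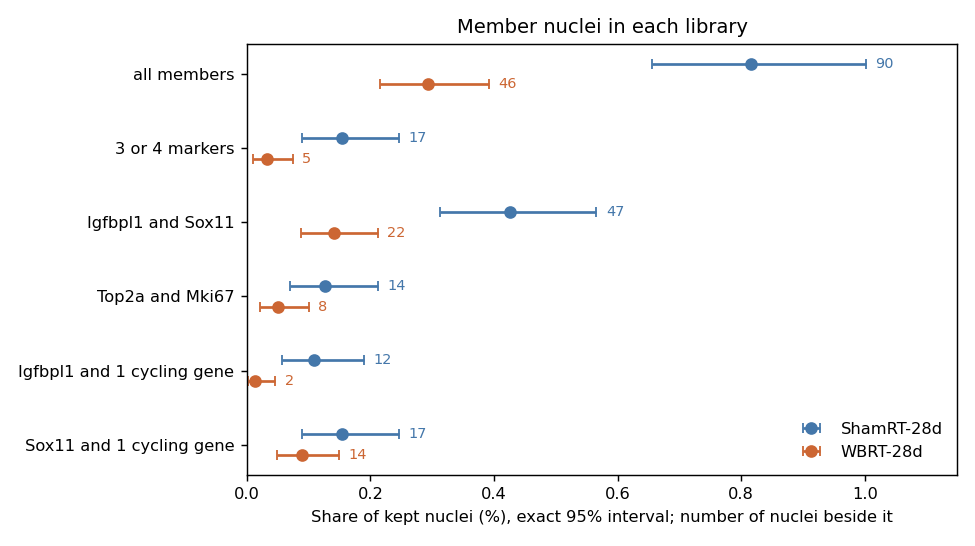
Share of kept nuclei (%) with its exact 95% interval, in ShamRT-28d (blue) and WBRT-28d (orange), for all members, for members with 3 or 4 markers and for the 4 marker classes; the number beside each point counts nuclei. Each of the 6 shares was lower in WBRT-28d, with 90 against 46 nuclei in all.

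Other sets of nuclei, also defined by detected genes, had other ratios. Oligodendrocyte precursors (Pdgfra and Cspg4 without Mog, Csf1r and Flt1) were 1.78% of kept nuclei in ShamRT-28d and 2.71% in WBRT-28d. GABA neurons with Meis2 (and Gad1 or Gad2, without Slc17a7 and Pdgfra) were 4.46% and 7.24%. Granule neurons of the dentate gyrus (Prox1 and Slc17a7 with C1ql2 or Dsp) were 0.362% and 0.364%, with a ratio of 1.0 (0.658 to 1.54). Oligodendrocytes (Mog without Pdgfra, Slc17a7, Csf1r and Flt1) were 17.4% and 13.4%. How much of each brain region entered each library was not tested.

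Around the threshold, nuclei with 1 marker numbered 683 and 877. Igfbpl1 was the lone marker of 133 and 94 nuclei, Mki67 of 113 and 79, Top2a of 18 and 16, and Sox11 of 419 and 688. Just inside it, 25 and 16 members held 2 markers at 1 UMI each. Among all kept nuclei the 4 genes differed in direction. Igfbpl1 was detected in 247 and 157 nuclei (ratio of shares 0.448, 0.364 to 0.549), Top2a in 62 and 50 (0.568, 0.383 to 0.838) and Mki67 in 179 and 165 (0.649, 0.522 to 0.807), whereas Sox11 was detected in 612 and 1067 (1.23, 1.11 to 1.36). Most nuclei with Sox11 were thus outside the population.

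Members fell into 4 classes by the markers they held, a split made after the marker combinations had been seen. The largest class held Igfbpl1 and Sox11 without a cycling gene: 47 nuclei in the sham library and 22 in the irradiated one (ratio of shares 0.330, 0.189 to 0.558). Top2a and Mki67 together were found in 14 and 8 (0.403, 0.146 to 1.03), an interval that includes 1. This class was made of unlike parts. With Igfbpl1 or Sox11 beside the cycling genes there were 13 and 4 nuclei (0.217, 0.0515 to 0.702), and with neither of them 1 and 4 (2.82, 0.279 to 139). Igfbpl1 with 1 of the 2 cycling genes was found in 12 and 2 (0.117, 0.0128 to 0.527). Sox11 with 1 cycling gene was found in 17 and 14 (0.580, 0.265 to 1.25), an interval that also includes 1.

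Cell cycle genes that the rule did not use differed between the classes. Of 69 listed genes of S phase and of G2 and M phase, the 14 nuclei with Top2a and Mki67 in ShamRT-28d held 19 to 37 with a median of 28.5, and the 8 in WBRT-28d held 9 to 41 with a median of 28. Nuclei with Igfbpl1 and Sox11 held medians of 2 and 1.5, with at most 10 and 20. Top2a separated the members better than Mki67 did: at least 10 of these genes were detected in 23 of 25 sham members with Top2a and 7 of 10 irradiated ones, but in 1 of 18 and 0 of 14 members with Mki67 and no Top2a. Of those latter nuclei, 17 of 18 and 13 of 14 had Rbfox3, the gene of the mature neuron protein NeuN. They were deeper, with median UMIs of 10218 and 7476 against 3886 and 4048.5 in members with Top2a. Thinned to 1500 UMIs, Rbfox3 was found in 48.3% and 53.2% of them, in 13.0% and 30% of members with Top2a, and in 7.86% and 15.04% of oligodendrocytes, which should lack it.

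**Figure D2:**
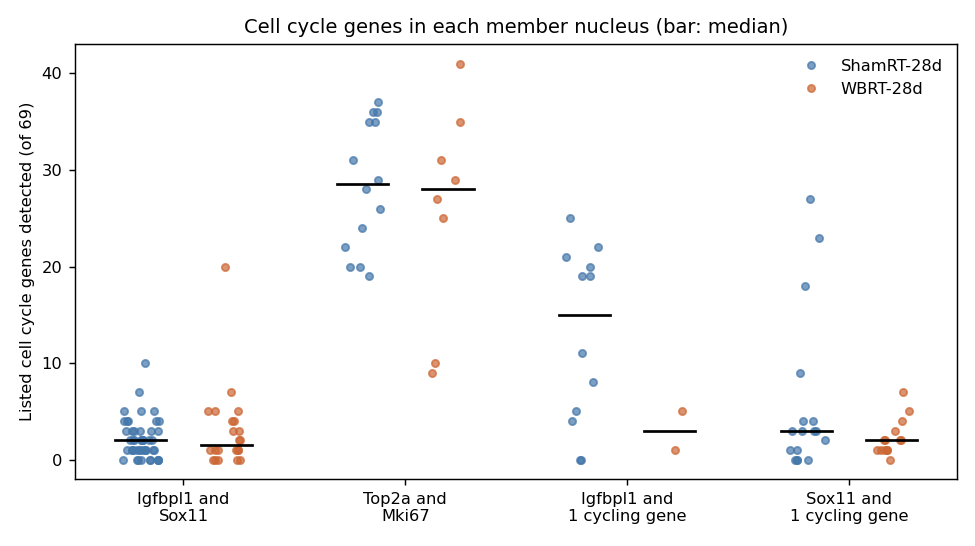
Listed cell cycle genes detected in each member nucleus (number of 69), by marker class and library, with a bar at each median. Nuclei with Top2a and Mki67 stood at medians of 28.5 and 28 genes, and nuclei with Igfbpl1 and Sox11 at 2 and 1.5.

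The class of Sox11 with 1 cycling gene went against the label of a progenitor or immature neuron. Rbfox3 was detected in 15 of 17 of its nuclei in ShamRT-28d and in 13 of 14 in WBRT-28d. Dcx, which encodes the microtubule protein doublecortin of migrating neuroblasts, was detected in 5 and 5, and Draxin in 0 and 0. Its median of mature neuron genes (12 genes such as Snap25 and Syt1) was 12.2 and 11.2 UMIs per 1000, against 0.794 and 1.62 in the class of Top2a and Mki67, and its median of immature neuron genes was 0.597 and 0.624. It also held 3 nuclei of ShamRT-28d with 18 or more cell cycle genes, so it was mixed. Without this class, 73 and 32 members were left and the ratio of shares was 0.309 (0.197 to 0.474). Mature neuron genes were also found among those left. In the class of Igfbpl1 and Sox11, Rbfox3 was detected in 20 of 47 and 16 of 22 nuclei. Immature neuron genes exceeded mature ones in only 19 of 47 and 1 of 22.

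The 2 cycling markers are shown with their promoters, since the class that carries both had the highest medians of detected cell cycle genes. The 250 bases before the start of each gene are given 5′ to 3′ on the gene's strand (RefSeq, GRCm38.p6). Both genes lie on the minus strand, Top2a with its window at chr11:99024190-99024439 and Mki67 at chr7:135716380-135716629. Capitals mark the motifs TTTGAA (the core of the element known as CHR) and CCAAT, read on both strands.
Top2a: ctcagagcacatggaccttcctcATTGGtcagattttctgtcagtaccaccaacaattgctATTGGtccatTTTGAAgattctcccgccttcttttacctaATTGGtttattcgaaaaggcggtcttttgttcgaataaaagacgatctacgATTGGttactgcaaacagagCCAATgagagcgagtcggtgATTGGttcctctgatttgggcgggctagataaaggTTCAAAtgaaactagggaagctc
Mki67: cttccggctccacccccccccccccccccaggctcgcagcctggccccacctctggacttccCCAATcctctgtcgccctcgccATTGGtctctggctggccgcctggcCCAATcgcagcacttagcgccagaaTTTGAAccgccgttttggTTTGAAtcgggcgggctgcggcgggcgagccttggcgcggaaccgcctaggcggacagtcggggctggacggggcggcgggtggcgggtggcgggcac
The window of Top2a held 2 matches of TTTGAA and 6 of CCAAT, and that of Mki67 2 and 3. Among 27025 promoters of this length, 16.3% held TTTGAA, 34.5% CCAAT and 5.73% both. Of the 39 listed genes of G2 and M phase, 35 had a promoter entry, and 31.4% of these held both motifs, as did 11.5% of the 26 S phase genes with an entry. A match is a string of letters and no measured binding site.

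Nuclei with Top2a and Mki67 were also described one by one. Top2a counts were 1 to 20 UMIs in the 14 nuclei of ShamRT-28d and 2 to 17 in the 8 of WBRT-28d, and Mki67 counts were 1 to 9 and 1 to 5. Egfr, the receptor of transit-amplifying progenitors, was detected in 9 of 14 and 5 of 8. The most Egfr UMIs in 1 nucleus were 43 in ShamRT-28d and 28 in WBRT-28d. Dcx was detected in 9 of 14 and 3 of 8, and Meis2 in 12 and 6. The libraries overlapped in all of these counts. Markers of other cell types were high in 2 of these nuclei. In ShamRT-28d the nucleus of 3218 UMIs, the 1 with neither Igfbpl1 nor Sox11, had 15 UMIs over 3 lymphocyte genes (4.66 per 1000) and no Dcx or Egfr. In WBRT-28d the nucleus of 3175 UMIs, which also had neither, held 13 UMIs over 5 microglia genes (4.09 per 1000). These 2 nuclei go against the label of a neural progenitor and stay in the counts, since the rule took them. Scrublet marked 0 of the 14 and 6 of the 8 (75%, 34.9 to 96.8). Without the marked nuclei the class was 14 against 2, with a ratio of 0.105 (0.0116 to 0.458). Of the 8 nuclei, 1 had 12 Rbfox3 UMIs, 1 had Mog with 16 Mbp UMIs, 1 had Csf1r and 1 had Flt1. In ShamRT-28d, 3 of 14 had Mog and 1 had Slc17a7. Whether these nuclei are doublets was not tested further.

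Dividing nuclei were also counted without the 4 markers, by at least 5 of the 69 cell cycle genes after thinning to 1500 UMIs, as a mean over 5 draws. This gave 43.8 nuclei (0.536%) in ShamRT-28d and 25.8 (0.193%) in WBRT-28d. Members made up 23.8 and 7.6 of them, and the ratio of their shares was 0.204 (0.0791 to 0.468), computed like the next ones on rounded counts. Nuclei with Pdgfra, a marker of oligodendrocyte precursors, made up 9.4 and 13.6, with a ratio of 0.95 (0.383 to 2.49), which is 0.884 without rounding. Nuclei that were neither members nor had Pdgfra made up 10.6 and 4.6, with a ratio of 0.278 (0.0756 to 0.867), so their share was lower as well. The intervals overlap, and differences between these sets were not tested.

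Immature and mature neuron programs were set side by side in each nucleus. The immature list held 18 genes of neuroblasts (Dcx, Sox4, Stmn2, Nnat and the like) and did not include the markers of the rule. In ShamRT-28d its level was 0 to 7.89 UMIs per 1000 with a median of 2.26, and in WBRT-28d it was 0 to 6.96 with a median of 0.853. Mature neuron genes stood at medians of 4.13 (0 to 40.7) and 8.85 (0 to 26.6). The ranges overlap widely and the medians moved in opposite directions. The immature list exceeded the mature list in 39 of 90 members of ShamRT-28d (43.3%, 32.9 to 54.2) and in 6 of 46 of WBRT-28d (13.0%, 4.94 to 26.3). Without the nuclei marked by Scrublet these were 39 of 88 and 1 of 34 (2.94%, 0.0744 to 15.3). Within the class of Igfbpl1 and Sox11 it did so in 19 of 47 and in 1 of 22 nuclei. In that class the immature list had a median of 2.69 (0.194 to 7.89) in ShamRT-28d and 1.13 (0 to 6.47) in WBRT-28d, and the mature list 4.35 (0 to 40.7) and 9.74 (0.374 to 26.6). Summed over the UMIs of the class, the mature list was not higher in WBRT-28d, at 11.2 and 10.7 per 1000. For comparison, GABA neurons with Meis2 outside the members had medians of 0.615 and 0.510 for the immature list and 11.6 and 12.1 for the mature list. Oligodendrocytes, which should lack neuron genes, had medians of 0.545 and 0.559 for the immature list but 0.987 and 2.43 for the mature list, so mature neuron genes were higher in these nuclei of WBRT-28d as well. In all other kept nuclei together the mature medians were 6.92 and 6.97. The part of other cells' RNA in the members' mature medians was not tested.

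**Figure D3:**
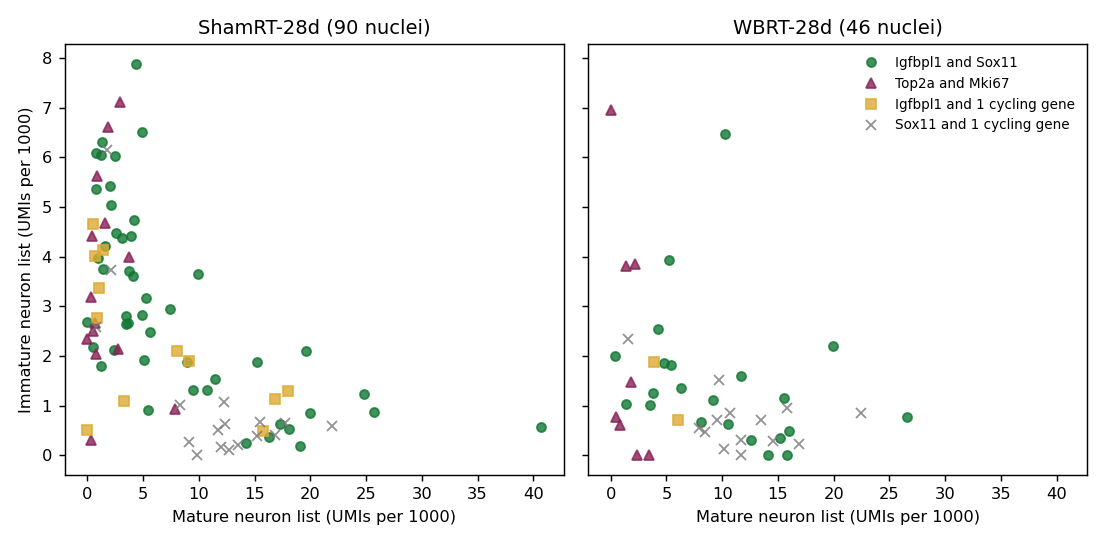
Summed UMIs per 1000 of the immature neuron list (vertical) against the mature neuron list (horizontal) in each member nucleus, with 1 panel a library and 1 symbol a marker class. In ShamRT-28d 39 of 90 nuclei had more immature than mature UMIs, and in WBRT-28d 6 of 46 did.

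Dcx, a gene of neuroblasts, was also described by the nuclei that held it. It was detected in 57 of 90 members of ShamRT-28d (63.3%, 52.5 to 73.2) and in 20 of 46 of WBRT-28d (43.5%, 28.9 to 58.9). In the class of Igfbpl1 and Sox11 it was detected in 37 of 47 (78.7%, 64.3 to 89.3) and 11 of 22 (50%, 28.2 to 71.8), although the WBRT-28d nuclei were deeper (median 5150.5 against 3972 UMIs). Thinned to 1500 UMIs, Dcx was found in 47.4% and 22.0% of that class. Oligodendrocytes, which should lack it, gave 2.83% and 4.75% after the same thinning. Before thinning they gave 5.93% and 10.4% at median depths of 2420 and 2525 UMIs. Without the nuclei marked by Scrublet, Dcx was detected in 55 of 88 and 14 of 34 members. Members with Dcx were 0.516% and 0.128% of kept nuclei, with a ratio of 0.247 (0.141 to 0.418), and members without it 0.299% and 0.166% (0.555, 0.319 to 0.957).

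Transcription factors of the olfactory and GABA lineage were detected in fewer member nuclei of WBRT-28d. Meis2 was detected in 36 of 47 nuclei with Igfbpl1 and Sox11 in ShamRT-28d (76.6%, 62.0 to 87.7) and in 12 of 22 in WBRT-28d (54.5%, 32.2 to 75.6), and in oligodendrocytes in 19.9% and 29.4%. Among all members it was detected in 70 of 90 and 24 of 46, and without the nuclei marked by Scrublet in 69 of 88 and 13 of 34. Dlx6os1, an antisense transcript of the Dlx5 and Dlx6 locus, was detected in 29 of 47 and 9 of 22 nuclei with Igfbpl1 and Sox11. Among all members it was detected in 47 of 90 (52.2%) and 22 of 46 (47.8%). Without the nuclei marked by Scrublet these were 47 of 88 (53.4%) and 18 of 34 (52.9%). Dlx1 was detected in 26 of all 90 members and in 3 of 46. Sp9 was detected in 15 and 1. Sp8, which acts in the same olfactory interneurons, was detected in 7 of 90 and in 0 of 46, which allows a share of up to 6.52%, and Dlx2 in 11 and 0. The shares were lower in WBRT-28d for each of these 6 genes, while several intervals overlap, as for Meis2. Over all members the shares of Dlx6os1 were close.

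Of the hippocampal genes, Prox1 was detected often, whereas Neurod1 and Eomes were sparse in both libraries. Prox1, the homeobox gene of dentate granule neurons, was detected in 20 of 47 nuclei with Igfbpl1 and Sox11 and in 10 of 22, and oligodendrocytes gave 33.3% and 28.0%, beside shares of 42.6% and 45.5% in the class. Neurod1, a gene of newborn granule neurons, was detected in 2 of 90 and 1 of 46 members, and Eomes, which marks intermediate progenitors of glutamatergic neurons, in 1 and 1. These genes differ in how readily they are detected, so nuclei of dentate and olfactory type were not counted against each other. Rbfox3 was detected in 20 of 47 nuclei of the class (42.6%, 28.3 to 57.8) and in 16 of 22 (72.7%, 49.8 to 89.3), and after thinning in 31.3% and 42.0%. Oligodendrocytes gave 12.9% and 23.9% before thinning, and 7.86% and 15.04% after it, so the background was also higher in WBRT-28d. Slc12a5, the chloride exporter of mature neurons, was detected in 8 of 47 and 12 of 22, with shares after thinning of 5.95% and 19.1%. In oligodendrocytes its thinned shares were 4.81% and 6.94%, from separate draws that gave 8.21% and 18.4% in the class. The sham share thus lay closer to its background than the WBRT-28d share did, and it varied between sets of draws.

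**Figure D4:**
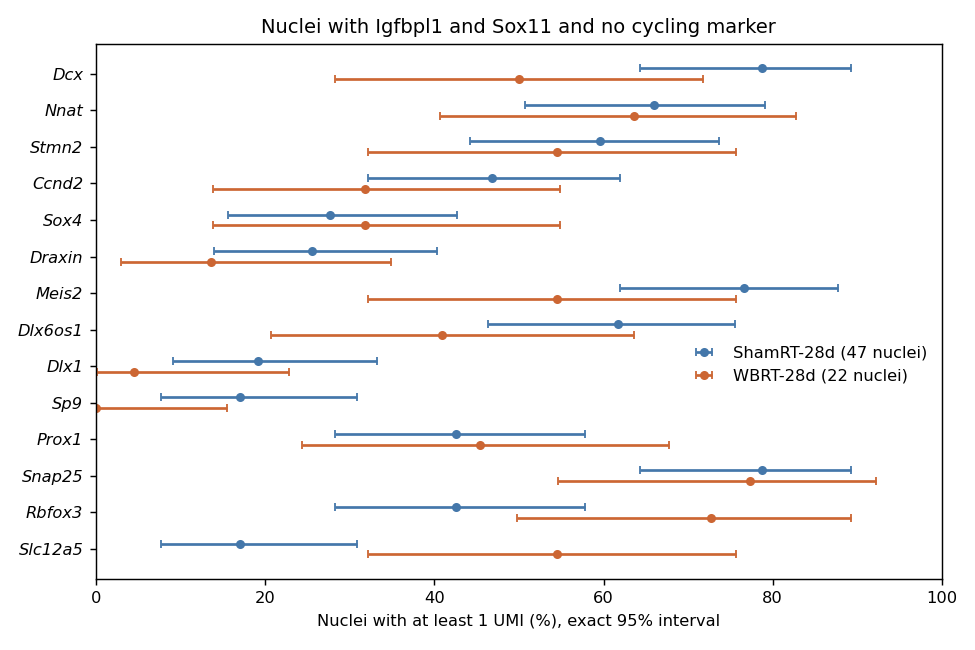
Share of nuclei (%) with at least 1 UMI of each gene, with exact 95% intervals, among nuclei with Igfbpl1 and Sox11 and no cycling marker in ShamRT-28d (blue, 47 nuclei) and WBRT-28d (orange, 22 nuclei). Dcx stood at 78.7% and 50%, and Rbfox3 at 42.6% and 72.7%.

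UMIs were then summed over the members of each library, and each gene's sum was divided by the sum over all genes (598850 UMIs in the sham library and 409533 in the irradiated one), which gives its CPM. Of 7301 genes with at least 20 UMIs, 4.33% were at least 2-fold higher and 7.68% at least 2-fold lower in WBRT-28d. At any fold, 44.3% were higher and 55.7% lower, with a median log2 ratio of -0.07. Such a ratio can come from other nuclei among the members or from other levels in like nuclei, which cannot be told apart. In WBRT-28d, 6 nuclei over 20000 UMIs held 41.6% of all member UMIs, and in ShamRT-28d 3 nuclei held 15.8%, so ratios are also given with each nucleus weighted equally where that changes them.

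Genes of immature neurons were lower in WBRT-28d. Of 15 listed genes with enough UMIs, 14 were lower, 7 of them at least 2-fold, against 55.7% and 7.68% of all genes, and the median log2 ratio was -0.73. The list's summed ratio was 0.478, but 0.897 (0.658 to 1.20) among members with 3 or 4 markers, an interval that includes 1. Ccnd2, the cyclin of neural precursors, had 230 UMIs in 55 nuclei of ShamRT-28d and 38 in 17 of WBRT-28d (CPM ratio 0.242, 0.167 to 0.342). In all other kept nuclei its ratio was 0.972. Without the nuclei marked by Scrublet the Ccnd2 ratio was 0.119 (0.0639 to 0.203), and among members with 3 or 4 markers it was 0.425 (0.213 to 0.772). Dcx had 142 UMIs in 57 nuclei and 42 in 20 (0.433, 0.299 to 0.614), and 0.628 (0.191 to 1.63) among members with 3 or 4 markers. Nnat, which encodes neuronatin, had 141 UMIs and 43 (0.446, 0.309 to 0.631). Stmn2, a microtubule regulator of growing axons, had 126 and 38 (0.441, 0.298 to 0.638). Tmsb10, an actin-binding peptide gene, had 31 and 6 (0.283, 0.0965 to 0.689). With each nucleus weighted equally these 5 ratios lay between 0.249 and 0.489, and Tubb3 was the 1 gene of the list that was higher (1.07). Within the class of Igfbpl1 and Sox11 alone the ratios of Ccnd2, Dcx and Stmn2 were 0.294, 0.387 and 0.375.

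Olfactory and GABA lineage genes showed 8 of 10 lower, 4 of them at least 2-fold, with a median log2 ratio of -0.84, where 55.7% of all genes were lower and 7.68% at least 2-fold lower. Meis2 had 980 UMIs in 70 nuclei of ShamRT-28d and 342 in 24 of WBRT-28d (0.510, 0.450 to 0.578), against a ratio of 0.979 in other nuclei. Its ratio was 0.361 (0.306 to 0.423) without Scrublet's nuclei and 1.13 (0.813 to 1.56) with 3 or 4 markers. Dlx6os1 had 318 UMIs and 69 (0.317, 0.241 to 0.413), while its ratio in other nuclei was 1.26. Dlx1 had 57 and 4 (0.103, 0.0270 to 0.277), and with equal weights 0.302. Etv1 had 57 and 10 (0.257, 0.117 to 0.507). Erbb4, the neuregulin receptor of interneurons, had 1635 and 1040 (0.930, 0.860 to 1.01) and 0.567 with equal weights, and Gad2, which encodes a GABA-synthesizing enzyme, was at 1.18. The antisense transcript Dlx1as was lower beside Dlx1 (109 UMIs and 10, ratio 0.134), and since the sources used here do not state that counting used strand, reads of the pair may not be separable.

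**Figure D5:**
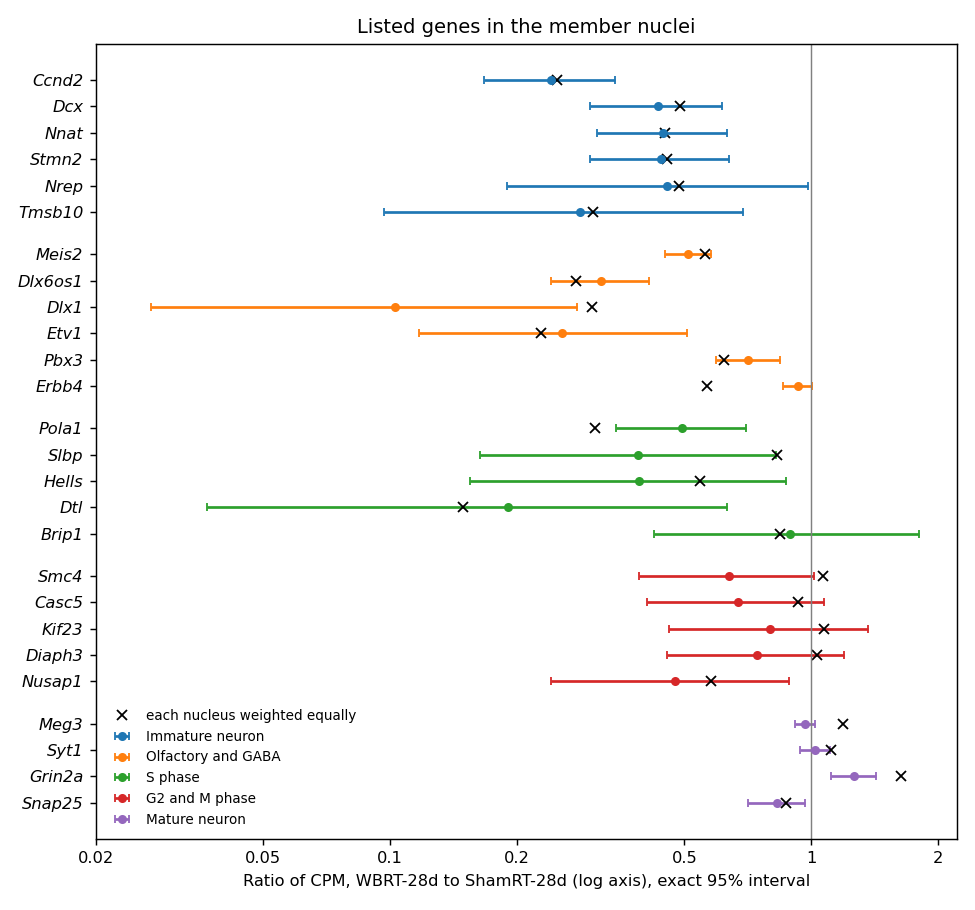
Ratio of CPM in member nuclei, WBRT-28d to ShamRT-28d (log axis), with exact 95% intervals, for listed genes in 5 groups; black crosses give the ratio with each nucleus weighted equally. The plotted immature neuron genes, which the naming rule took for their UMIs or for being past 2-fold, lay between 0.242 and 0.454. The plotted genes of G2 and M phase lay between 0.476 and 0.801. With equal weights these genes of G2 and M phase lay near or above 0.9 except Nusap1 at 0.579.

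Both cell cycle lists were lower, and the difference between them was not tested. All 10 S phase genes with enough UMIs were lower, 6 of them at least 2-fold, with a median log2 ratio of -1.06, against 55.7% lower and 7.68% at least 2-fold lower over all genes. The summed S phase ratio was 0.50 (0.402 to 0.618), and 0.440 (0.337 to 0.568) without the nuclei marked by Scrublet. Pola1, the catalytic subunit of the polymerase that primes replication, had 133 UMIs in 44 nuclei and 45 in 20 (0.495, 0.345 to 0.699). Hells, a chromatin remodeler of replicating cells, had 30 and 8 (0.390, 0.154 to 0.871). Slbp, which binds histone mRNA, had 34 and 9 (0.387, 0.163 to 0.824), and 0.828 with equal weights. Dtl, of the ligase that degrades licensing factors, had 23 and 3 (0.191, 0.0367 to 0.631), and 23 and 0 without Scrublet's nuclei. For G2 and M phase, 20 of 25 genes were lower, 5 of them at least 2-fold, with a median log2 ratio of -0.58, but its summed ratio of 0.726 became 0.969 with equal weights and 1.01 without nuclei over 20000 UMIs. It was 0.306 (0.250 to 0.371) without the nuclei marked by Scrublet. Kif11, a spindle motor, had 38 UMIs in 16 nuclei and 21 in 7 (0.808, 0.451 to 1.41). Ckap2l had 22 UMIs and 4 (0.266, 0.0666 to 0.783), and Ndc80 had 19 and 4 (0.308, 0.0762 to 0.926).

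Tpx2, which activates the kinase Aurora A, had 29 UMIs and 22 (1.11, 0.607 to 2.00). Casc5, the kinetochore scaffold gene now called Knl1, had 59 UMIs in 18 nuclei and 27 in 6 (0.669, 0.408 to 1.07). Without the nuclei marked by Scrublet the ratios of Kif11, Tpx2, Casc5 and Nusap1, a spindle protein gene at 0.476 with them, were 0.257, 0.336, 0.231 and 0.227, and among members with 3 or 4 markers those of Kif11, Tpx2 and Casc5 were 2.18, 2.03 and 1.45. Cdk6, the G1 kinase, was among the leading lower genes with 67 and 10 (0.218, 0.10 to 0.427). It stood 5.42-fold above all other kept nuclei in CPM in ShamRT-28d and at their level in WBRT-28d (1.0). Kif11 stood 35.7-fold and 32.9-fold above them, and Tpx2 34.7-fold and 34.4-fold.

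The 15 genes that most set members apart from other nuclei, which the choice of members partly fixes, were the 4 markers, genes of division (Casc5, Kif11, Tpx2, Cdca2, Cenpe, Kif15, Kif23, Smc4 and Prc1), Lockd and St8sia2. Lockd, a noncoding RNA beside the cyclin kinase inhibitor gene Cdkn1b, was 59.3-fold and 116-fold above other nuclei. St8sia2, the polysialyltransferase that modifies the adhesion molecule NCAM on neuroblasts, was 9.93-fold and 9.13-fold above them, and was lower in WBRT-28d members with 57 UMIs and 22 (0.564, 0.329 to 0.938), or 0.313 without the nuclei marked by Scrublet.

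Mature neuron genes were not lower. Of 11, 8 were higher and 3 lower, with 0 past 2-fold and a median log2 ratio of 0.29. The list's summed ratio was 1.02 (0.984 to 1.06). Over all genes 44.3% were higher, 4.33% at least 2-fold higher and 7.68% at least 2-fold lower. Syt1, the calcium sensor of synaptic vesicles, had 1443 UMIs and 1008 (1.02, 0.942 to 1.11). Grin2a, an NMDA receptor subunit gene, had 563 and 486 (1.26, 1.12 to 1.43) and 1.64 with equal weights. Snap25, of the vesicle fusion complex, had 451 and 256 (0.830, 0.709 to 0.970).

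Genes of migration and axon guidance had no common direction, with 9 of 17 higher, 4 of them at least 2-fold against 4.33% of all genes, and a median log2 ratio of 0.13. Dab1, the adaptor of the reelin receptors, had 710 UMIs in 50 nuclei and 1118 in 41 (2.30, 2.09 to 2.53). Nrp2, a semaphorin receptor, had 53 and 101 (2.79, 1.98 to 3.96), and Nrp1 had 67 and 101 (2.20, 1.60 to 3.05) with 1.57 when nuclei were weighted equally. Robo1, a Slit receptor, had 204 and 281 (2.01, 1.68 to 2.42) and 1.35 without nuclei over 20000 UMIs. Without Scrublet's nuclei Robo1 stood at 2.57 and Dab1 at 3.06. Slit1 had 116 UMIs in 45 nuclei and 33 in 11 (0.416, 0.274 to 0.617), of which 15 stood in 1 nucleus. The direction of Slit1 reversed at 3 or more markers, and those of Slit1 and Robo1 did so with Sox11 at 2 or more UMIs. Robo2 was at 0.744.

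Damage response genes differed less. Of 7 measured p53 targets, 5 were lower and 1 was past 2-fold (Zmat3, ratio 0.487), with a median log2 ratio of -0.17. Over all genes 55.7% were lower and 7.68% at least 2-fold lower. Mdm2, the ubiquitin ligase of p53, had 38 UMIs and 13 (0.50, 0.245 to 0.96), and its ratio in other nuclei was 1.0. Mdm4 had 82 and 58 (1.03, 0.726 to 1.47). Sesn1 had 92 and 68 (1.08, 0.778 to 1.49). Of 16 DNA repair genes, 12 were lower, 1 of them at least 2-fold, which was Brca2 with 23 and 6 UMIs (0.381, 0.127 to 0.964), a gene induced in S phase. These counts stand beside the same 55.7% and 7.68%, and the list's summed ratio was 1.06 among members with 3 or 4 markers. Atr, Trp53bp1 and Xrcc4 had ratios of 0.731, 1.05 and 1.05 with intervals that include 1.

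Senescence genes were hardly detected in members. Cdkn1a, which encodes the inhibitor p21, had 2 UMIs in 2 of 90 nuclei and 2 in 2 of 46. Cdkn2a, which encodes p16, had 0 UMIs in both, which allows shares of up to 3.33% and 6.52% of members with a UMI. A difference in either gene was not detectable at this depth. Of the 5 measured genes among cyclin kinase inhibitors and pocket proteins, 4 were lower and 0 were past 2-fold. Over all genes 55.7% were lower, 7.68% at least 2-fold lower and 4.33% at least 2-fold higher. Rb1 had 83 UMIs and 63 (1.11, 0.787 to 1.56).

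Stem and progenitor genes were mostly too sparse to compare. Of 9 genes of transit-amplifying progenitors 2 had enough UMIs, and Egfr had 164 in 18 nuclei and 76 in 12 (0.678, 0.509 to 0.895). The Egfr ratio was 0.0832 (0.0330 to 0.175) without the nuclei marked by Scrublet, which left 164 and 7 UMIs. It was 1.64 (1.13 to 2.34) among members with 3 or 4 markers and 0.964 without nuclei over 20000 UMIs, so its direction depends on which nuclei are counted. Slc1a3, the glutamate transporter of astrocytes and neural stem cells, had 64 and 66 (1.51, 1.05 to 2.16), with 23 of the latter in 1 nucleus, and its ratio was 0.640 (0.371 to 1.06) without Scrublet's nuclei. Gfap was at 0 UMIs in the members of ShamRT-28d and was detected in those of WBRT-28d. In the other direction, 5 genes of the stem cell and astrocyte list were at 0 in WBRT-28d and detected in ShamRT-28d.

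Leading genes were taken over the whole table. Beside Ccnd2, Dlx1, Dlx1as, Dlx6os1 and Cdk6, the 10 leading lower genes held Nol4 (855 UMIs in 86 nuclei and 233 in 35, ratio 0.398, 0.343 to 0.461), Tiam2, a Rac exchange factor (216 and 42, 0.284), Trpc4, a cation channel (94 and 12, 0.187), Man1a (120 and 24, 0.292) and the recombination gene Rad51b (48 and 6, 0.183). Man1a came to 0.799 with equal weights. Without Scrublet's nuclei Nol4 stood at 0.316 and Rad51b at 0.0406.

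For several of the leading higher genes, 1 nucleus of WBRT-28d held a large part of the UMIs. Htr4, a serotonin receptor, had 29 UMIs in 9 nuclei and 114 in 16 (5.75, 3.80 to 8.97), with 45 in 1 nucleus. Rerg had 28 in 12 and 93 in 20 (4.86, 3.15 to 7.70), with at most 13 in 1 nucleus. Gpr149 had 4 in 3 nuclei and 47 in 11, while its ratio in other nuclei was also high at 3.75. Sgcd had 832 UMIs in WBRT-28d, 362 of them in 1 nucleus. Tshz2 had 174, of which 117 stood in 1 nucleus, and its ratio of 12.1 was 2.68 with equal weights. Stac had 28 of 46 in 1 nucleus. Gucy1a3, Htr2c, Rreb1 and Sgk1 completed the 10, with ratios of 9.40, 4.84, 5.43 and 4.91.

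Markers of other cell types were measured in the members as well. The 6 oligodendrocyte genes were all detected, at 0 to 7.57 UMIs per 1000 in ShamRT-28d (median 0.381) and 0 to 6.99 in WBRT-28d (median 0.452). Of these, 5 of 6 were higher, where 44.3% of all genes were, Mobp with 27 and 50 UMIs (2.71, 1.66 to 4.50). The 6 microglia genes reached 1.40 and 4.09 UMIs per 1000 with medians of 0. Of the 4 genes of which a member may have 1, Mog was detected in 9 and 8 members, Slc17a7 in 16 and 6, Csf1r in 1 and 5 and Flt1 in 1 and 3. Of 5 ependymal genes, 5 were at 0 in ShamRT-28d and 4 in WBRT-28d. With all 4 of those markers at 0, 63 and 24 members were left with a ratio of shares of 0.268 (0.160 to 0.436), the immature neuron list at a summed ratio of 0.409 in place of 0.478, and the olfactory and GABA list at 0.441 in place of 0.712. Of the other lists, microglia genes had 3 of 3 measured higher (summed ratio 2.06), choroid plexus 2 of 2 (2.16), oligodendrocyte precursor genes 2 of 3 (1.18), glutamate neuron genes 1 of 3 (0.763) and dentate lineage genes 1 of 2 (1.24). These are few genes to set beside the 44.3% of all genes that were higher. Of the oligodendrocyte precursor genes, Tnr held most UMIs (329 and 276). Sox10 had 8 and 14 (2.56, 1.002 to 7.04) and Vcan 50 and 22 (0.643, 0.371 to 1.08). Olig1, with too few UMIs for the list, had 2 in 2 nuclei and 10 in 9. In WBRT-28d, 1 nucleus held 15 of 35 Ttr UMIs, 1 held 9 of 24 Clic6 UMIs and 1 held 7 of 17 Inpp5d UMIs. Skap1, a lymphocyte list gene, had 22 UMIs in ShamRT-28d and 0 in WBRT-28d. Endothelial, mural, fibroblast, ependymal and immediate early lists had 0 genes with enough UMIs. Summed over its genes, the endothelial list had 7 UMIs in 5 members of ShamRT-28d and 42 in 8 of WBRT-28d, 20 of them in 1 nucleus. In all other kept nuclei it was 0.147 and 0.292 UMIs per 1000. The mural list had 4 UMIs and 15, the fibroblast list 4 and 1, the ependymal list 0 and 1, the lymphocyte list 28 and 0 and the immediate early list 48 and 18. The part of other cells' RNA in single genes was not tested.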

How the data were processed

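The authors deposited raw UMI counts per gene and barcode for 2 Chromium libraries, made with Cell Ranger against a pre-mRNA version of mm10, so intronic reads count. Seurat 3.0 and R 3.5.3 stand in the processing notes too. No cell annotation or map of nuclei to mice was used here. Shares and ratios were computed with scipy 1.17.1, numpy 2.4.6 and pandas 2.3.3 under Python 3.11.15, figures with matplotlib 3.10.9, and doublets were scored by Scrublet in scanpy 1.11.5 at an expected rate of 0.8% per 1000 barcodes (9.18% and 12.8%), which marked 6.09% and 10.2% of barcodes. Doublets stayed in the main results.

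Shares have Clopper-Pearson intervals and ratios exact conditional binomial intervals, at 95%. They treat UMIs and nuclei as independent and so are too narrow for genes that vary between nuclei. A share at 0 was given the limit of 3 counts. Gene ratios took genes with at least 20 UMIs over both libraries. Thinned detection shares are means over 20 draws. The classes, the split by Top2a and the count by cell cycle genes were added after the data had been seen. Total depth was 45511469 UMIs over 11469 barcodes in ShamRT-28d and 68423922 over 15986 in WBRT-28d. The interval code was tested on simulated data. The members and the 23 gene lists were chosen with earlier results of these data known. Named genes are the markers, the genes with the most UMIs in each list (up to 4), listed genes past 2-fold with an interval without 1, the 10 leading genes in each direction with at least 50 UMIs, the 15 that most set members apart, Cdkn1a and Cdkn2a. Rbfox3, Slc12a5, Sp8, Sp9, Dlx2, Neurod1, Eomes, Draxin, Gad2, Tubb3, Zmat3 and Gfap come from the lists and were named after their values had been seen. The alternatives tried are other marker and doublet limits, depth limits, thinning, other scalings and other UMI minimums. Knl1 stood in the files under its older symbol Casc5. Promoter sequences come from RefSeq (GRCm38.p6). Some genes of the lists are not reported here.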

Additional observations from a re-analysis of the deposited data

Results flagged for a closer look

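Nuclei with Top2a, Mki67 and Pdgfra were left out of the population by the rule, although they carry both cycling markers. They are given since they are a signal outside the comparisons above. There were 8 in ShamRT-28d and 9 in WBRT-28d, that is 0.0725% and 0.0574% of kept nuclei, with a ratio of 0.792 (0.271 to 2.36). The interval includes 1 and most of the interval of the members' own ratio (0.247 to 0.519), so a difference in response between these dividing precursors of the oligodendrocyte lineage and the members was not shown.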

How the results depend on the processing

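Each condition had 1 library, so no library could be left out. No paired analysis was possible because each condition has 1 library. The members' share stayed lower in WBRT-28d under each alternative run, with a main ratio of 0.360. It was 0.207 at 3 or more markers, 0.241 after thinning to 1500 UMIs and 0.548 for members with Mki67 and without Top2a. The share with Igfbpl1 and Sox11 (0.330) was 0.167 with all 4 of Mog, Csf1r, Flt1 and Slc17a7 at 0, and that with Top2a and Mki67 (0.403) was 0.105 without the nuclei Scrublet marked. Genes at least 2-fold lower (561) and higher (316) numbered 226 and 155 at 3 or more markers, 156 and 139 at a minimum of 50 UMIs, and 1742 and 1275 at 1 UMI in each library. Sox11 at 2 or more UMIs gave 356 lower, and equal weights gave 551 higher. The immature neuron list (0.478) was 0.897 at 3 or more markers, 0.406 without Scrublet's nuclei, 0.409 with the 4 other markers at 0, 0.565 with Sox11 at 2 or more UMIs and 0.584 without nuclei over 20000 UMIs. The olfactory and GABA list (0.712) was, in the same order but without Scrublet, 0.572, 0.441, 0.779 and 0.519, and it was 0.466 without the class of Sox11 and 1 cycling gene and 0.540 with equal weights. The list of G2 and M phase (0.726) reversed to 1.42 at 3 or more markers and 1.01 without nuclei over 20000 UMIs. It was 0.306 without Scrublet's nuclei, 0.857 with the 4 other markers at 0, 0.946 with Sox11 at 2 or more UMIs, 0.890 without the class of Sox11 and 1 cycling gene and 0.969 with equal weights. The S phase list stayed within its interval throughout. At 3 or more markers the DNA repair list (1.06), the oligodendrocyte list (0.389), Mobp (0.649), Nrep (1.95) and Slit1 (1.04) reversed. The oligodendrocyte list (0.70) and Inpp5d (0.287) did so with the 4 other markers at 0, Robo1 (0.984) and Slit1 (1.13) with Sox11 at 2 or more UMIs, and Btg2 (1.24) without the class of Sox11 and 1 cycling gene. The cause was not tested. The alternatives by Top2a, by the class of Sox11 and 1 cycling gene, with equal weights, without nuclei over 20000 UMIs and without Scrublet's nuclei for shares of nuclei were chosen after seeing the data.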
